A study of Mus musculus with 4 samples.

Results

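The transcripts of 9 transcription factor genes of the myeloid lineage were followed through mononuclear phagocytes of the mouse heart: Maf, Klf2, Klf4, Spi1, Cebpb, Nr4a1, Irf8, Irf4 and Zeb2. They were taken by symbol, 9 of the 31053 genes in the count tables, and no measured value entered the choice. All 9 carried the same Ensembl identifier in the tables and in the annotation. The cells came from CSF1R-EGFP+ mice of 12 to 16 weeks, in which EGFP is driven by the promoter of the CSF-1 receptor gene, and were sorted as EGFP-positive and Ly6G-negative. The baseline group was 1 library pooled from 3 hearts without surgery. The infarct group was 3 libraries, each from 1 heart taken 7 days after left coronary artery ligation with the remote zone cut away, so the reporter genotype, sort and age were shared by both groups and surgery was not.

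Macrophage identity is set by a small set of DNA-binding proteins. PU.1, encoded by Spi1, opens the myeloid enhancers, MAF proteins hold the differentiated macrophage state, and C/EBP-beta and NR4A1 are needed by monocytes and above all by the Ly6C-low, nonclassical ones. IRF8 and IRF4 divide the dendritic cells, with IRF8 required for type 1 conventional (cDC1) and plasmacytoid (pDC) cells and IRF4 used by type 2 conventional cells (cDC2), while ZEB2 represses the cDC1 fate, and KLF2 and KLF4 are zinc finger factors that restrain inflammatory gene expression and support monocyte development.

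The tables held 10144 to 10804 barcodes per library, and 41533 of 41686 were kept at 500 to 40000 UMIs, with a median of 6398.5 UMIs per cell at baseline and 8469.5 to 8556.5 in the infarct libraries. A total of 179 barcodes occurred in more than 1 library. Cells were placed in types by the summed UMIs of marker lists that contain none of the 9 genes, so every type name below stands for a transcript gate and is to be read as "like" that type. Csf1r was detected in 89.7 to 93.9% of cells and Adgre1, which encodes F4/80, in 67.1% at baseline and 79.7 to 85% in the infarct libraries, while Ly6g was found in at most 0.0195%. Levels are given as UMIs of a gene per 1000000 UMIs (CPM) of a type summed within a library, without mitochondrial genes. Types were compared over the 3 infarct libraries in 1 edgeR fit of 12 types, with the library as a block and a Benjamini-Hochberg adjusted p of 0.01 over 11362 genes as the threshold.

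Promoter windows of 300 bases are shown for 3 genes that were high together in nonclassical monocytes, Klf2, Klf4 and Nr4a1, and for Irf8, which was high in macrophages of the interferon gate. The sequences are from RefSeq on GRCm38.p6, each running from 250 bases before to 50 bases after an annotated start of the gene, and 7 of the 9 genes had an entry. Capitals mark, in the first 3, the half-site of the cyclic AMP response element on either strand (TGACG or CGTCA) and, in Irf8, the palindromic gamma-interferon activated site (TTCNNNGAA). The windows lie at chr8:72318812-72319111 on the plus strand for Klf2, chr4:55532426-55532725 on the minus strand for Klf4, chr15:101266596-101266895 on the plus strand for Nr4a1 and chr8:120736108-120736407 on the plus strand for Irf8.
Klf2: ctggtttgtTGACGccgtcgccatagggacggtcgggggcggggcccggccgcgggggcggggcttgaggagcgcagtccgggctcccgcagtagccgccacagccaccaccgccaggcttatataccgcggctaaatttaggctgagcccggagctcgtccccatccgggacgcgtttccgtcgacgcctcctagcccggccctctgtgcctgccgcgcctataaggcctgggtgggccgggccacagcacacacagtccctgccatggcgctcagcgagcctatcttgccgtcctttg
Klf4: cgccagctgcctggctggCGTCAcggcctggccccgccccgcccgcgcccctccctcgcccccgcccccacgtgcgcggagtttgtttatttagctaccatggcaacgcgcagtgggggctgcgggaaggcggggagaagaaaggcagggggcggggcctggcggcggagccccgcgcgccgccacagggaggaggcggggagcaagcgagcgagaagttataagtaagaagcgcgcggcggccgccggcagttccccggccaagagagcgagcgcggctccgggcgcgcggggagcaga
Nr4a1: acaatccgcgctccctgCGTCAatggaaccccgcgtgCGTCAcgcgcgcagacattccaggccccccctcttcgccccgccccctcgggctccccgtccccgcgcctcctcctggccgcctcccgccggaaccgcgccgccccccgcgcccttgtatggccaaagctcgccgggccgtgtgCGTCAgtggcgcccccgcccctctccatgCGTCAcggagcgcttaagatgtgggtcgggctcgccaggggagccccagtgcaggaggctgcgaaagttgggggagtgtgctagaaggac
Irf8: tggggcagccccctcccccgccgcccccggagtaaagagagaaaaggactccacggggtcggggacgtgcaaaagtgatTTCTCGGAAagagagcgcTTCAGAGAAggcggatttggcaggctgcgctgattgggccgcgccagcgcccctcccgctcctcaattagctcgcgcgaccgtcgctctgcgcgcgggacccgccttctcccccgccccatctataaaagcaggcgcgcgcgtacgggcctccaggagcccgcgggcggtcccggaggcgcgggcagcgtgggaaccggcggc
The half-site occurred 1 time in the Klf2 window, 1 time in that of Klf4 and 4 times in that of Nr4a1, and 20.8% of 32841 RefSeq promoter windows of this length held it. The Irf8 window held 2 gamma-interferon activated sites, a motif present in 8.3% of the windows. A second annotated start of Irf8, with its window at chr8:120738389-120738688, held 0. None of the 4 windows printed held both motifs, and a match is a description of the letters, not of a bound site. Windows and motifs were chosen after the levels were seen. Among windows not printed, that of Cebpb held 3 half-sites and that of Irf4 held neither motif. Zeb2 windows 2 and 3 (chr2:45113230-45113529 and chr2:45113204-45113503) held both motifs, but they overlap and share the same match of each. Zeb2 windows 1 and 4 held neither motif. Zeb2 did not pass in the interferon gate (log2 -0.11) or in nonclassical against classical monocytes (log2 -0.05).

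**Figure D1:**
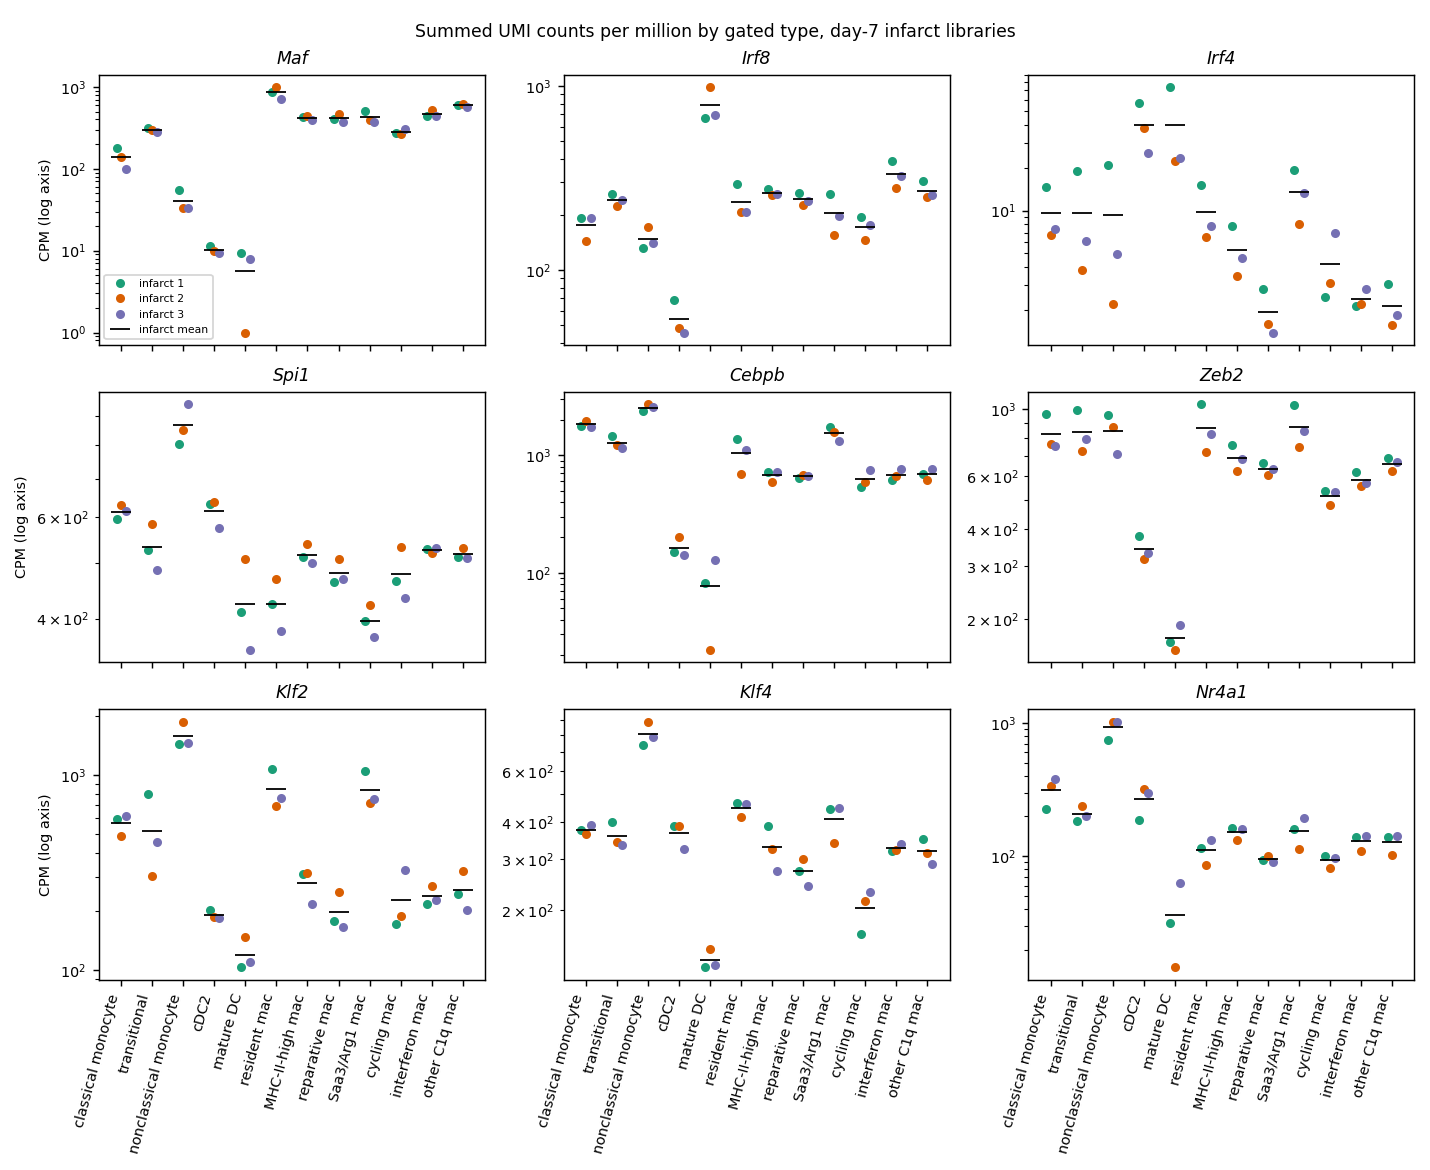
CPM on log axes (vertical) of the 9 genes in 12 gated types (horizontal), with 1 point for each of the 3 infarct libraries and a bar for their mean. Maf was highest in resident macrophages and lowest in both dendritic types (the mature DC value of 0 in infarct library 2 is drawn at 1), whereas Spi1 spanned only 2.19-fold.

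Across the 12 types the 9 genes differed widely in how unevenly they were spread. Maf covered a 152-fold range between its highest and lowest type mean. Cebpb covered 32.8-fold, Nr4a1 25.6-fold, Irf4 20.7-fold, Irf8 14.4-fold and Klf2 13.3-fold. Klf4, Zeb2 and Spi1 were the flattest, at 5.96-fold, 5.05-fold and 2.19-fold. When types were ranked by mean level, most neighbours in the order overlapped in their library values, from 4 of 11 neighbouring pairs for Maf to 10 of 11 for Irf4, so only the larger steps in each order are described.

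Maf, the large MAF factor of differentiated macrophages (chr8:115682942-115707794, minus strand, mm10), separated macrophages from dendritic cells. In resident macrophages it measured 874.5, 1002 and 712 CPM in infarct libraries 1, 2 and 3. In cDC2 it measured 11.3, 9.84 and 9.27 CPM. The lowest macrophage value of any of the 7 macrophage types, 269.6 CPM in cycling cells, still lay above every dendritic and every nonclassical monocyte value. The mean of cDC2 and mature DC was 7.92 ± 2.74 CPM against 495.5 ± 40.3 CPM over the macrophage types (SD, n = 3), a log2 difference of -5.75 (SE 0.17, edgeR adjusted p = 9.2e-24), lower in 3 of 3 libraries. In mature DC, library 2 held no Maf UMI, which allows up to 11.1 CPM.

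Among monocytes Maf followed the C1q gate. Classical monocytes, positive for Ly6c2, Plac8, Hp or Chil3 and negative for C1q, held 179.8, 138 and 99.1 CPM. Cells positive for both lists, called transitional here, held 318.5, 294 and 285 CPM, and the 2 sets of values did not overlap. The log2 difference was 1.07 (SE 0.13, edgeR adjusted p = 4.8e-07), and Maf was the 1 gene of the 9 to pass in this contrast, where 10.3% of all genes passed. Nonclassical monocytes were lower than classical ones, at 55.3, 33.2 and 33.1 CPM (log2 -1.87, SE 0.21, edgeR adjusted p = 4.7e-08). The transitional gate would also take droplets that hold a monocyte and a macrophage together. With the cells of highest doublet score removed the log2 difference was 1.05 (edgeR adjusted p = 2.3e-06). The automatic threshold on these scores did not work in the infarct libraries, so this removal need not have taken such droplets. Their part in the transitional Maf level was not tested.

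By share of cells, Maf UMIs were found in 90.0 to 92.3% of resident macrophages and 6.07 to 8.18% of cDC2 in the infarct libraries. In the cells of the endothelial gate, which numbered 8 to 14 per infarct library, the share was 35.7 to 38.5%, and in the B cell gate 35.1 to 45.2%, with the cells at median depths of 6234.0 to 7373.0 and 2635.0 to 5901.0 UMIs. The cDC2 share was therefore below that of types sorted along with the macrophages. After thinning every cell to 2000 UMIs the shares were 70.4 to 79.0% in resident macrophages and 0.735 to 1.96% in cDC2.

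Spi1, which encodes PU.1 (chr2:91082390-91115756, plus strand), was the most even of the genes. Its highest values were those of nonclassical monocytes, 805, 851 and 943 CPM, none of which overlapped any other type. Classical monocytes measured 595, 630.4 and 614 CPM and cDC2 632, 637 and 575 CPM, so these types overlapped. Macrophages of the Saa3/Arg1 gate were lowest, at 396, 421 and 371.5 CPM. The difference between nonclassical and classical monocytes was 0.43 on the log2 scale (SE 0.08, edgeR adjusted p = 0.00026), higher in 3 of 3 libraries, and it passed the threshold in no fit that left 1 library out. Spi1 passed in 8 of 12 contrasts, with log2 differences of at most 0.48 in size, where 10.3 to 47.5% of all genes passed in a contrast. Genes that PU.1 serves spread further. All 5 of Csf1r, Itgam, Fcgr1, Cybb and Cd68, which textbooks place downstream of PU.1, were lower in the dendritic types than in macrophages, with log2 differences of -3.29 for Csf1r (SE 0.11) and -2.51 for Fcgr1 (SE 0.15). Spi1 itself was higher by 0.21 there (SE 0.05, edgeR adjusted p = 0.0011). That Spi1 difference lost the threshold under 6 of 14 alternative settings, among them those without infarct library 1 and without library 2.

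Cebpb, the C/EBP factor of monocytes and of inflammatory macrophages (chr2:167688915-167690418, plus strand), was highest in monocytes. Nonclassical monocytes measured 2368, 2718 and 2553 CPM and classical monocytes 1784, 1971 and 1748 CPM. These groups did not overlap, but the difference did not pass (log2 0.39, SE 0.18, edgeR adjusted p = 0.13). Dendritic cells sat far below, at 149.9, 199.8 and 142 CPM in cDC2 and 81.3, 22.1 and 129 CPM in mature DC. The dendritic mean was 6.63-fold below that of macrophages (log2 -2.73, SE 0.15, edgeR adjusted p = 3.4e-16).

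Within macrophages Cebpb rose in the Saa3/Arg1 gate, to 1752, 1588 and 1317 CPM against a mean of 731 ± 81.4 CPM over the other macrophage types (SD, n = 3). The log2 difference was 1.00 (SE 0.13, edgeR adjusted p = 2.3e-07). In the same gate Hif1a, the hypoxia-inducible factor, was higher by 1.66 (SE 0.14, edgeR adjusted p = 3.8e-11). Hif1a was also higher in classical monocytes than in macrophages (log2 1.45, SE 0.13, edgeR adjusted p = 3e-11). Hypoxia was not measured. Resident macrophages were uneven for Cebpb, at 1366, 686.5 and 1106 CPM in libraries 1, 2 and 3, and did not pass the test against the other macrophages (log2 0.33, SE 0.14, edgeR adjusted p = 0.067).

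Zeb2, a zinc finger repressor that in dendritic cells opposes the cDC1 fate (chr2:44983632-45117395, minus strand), was lower in dendritic cells than in monocytes and macrophages. Among macrophage types its mean ran from 515 ± 29.9 CPM in cycling cells to 874 ± 142 CPM in the Saa3/Arg1 gate (SD, n = 3). Against the other macrophages it was lower in cycling cells (log2 -0.56, SE 0.07, edgeR adjusted p = 6e-08), and it was higher in classical monocytes than in macrophages (log2 0.34, SE 0.06, edgeR adjusted p = 3.5e-05). Classical monocytes measured 963, 764.5 and 752 CPM and resident macrophages 1037, 721.5 and 825 CPM. Values in cDC2 were 378, 316 and 332 CPM and in mature DC 168, 158 and 192 CPM, with no overlap between these types or with any monocyte or macrophage type. The dendritic types were 2.61-fold below macrophages (log2 -1.38, SE 0.06, edgeR adjusted p = 2.9e-18) and mature DC a further 1.92-fold below cDC2 (log2 -0.94, SE 0.12, edgeR adjusted p = 7.2e-08). The cDC1 gate held only 14, 4 and 7 cells in the infarct libraries and was not tested, and its Zeb2 values were 221, 36.4 and 17.3 CPM.

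**Figure D2:**
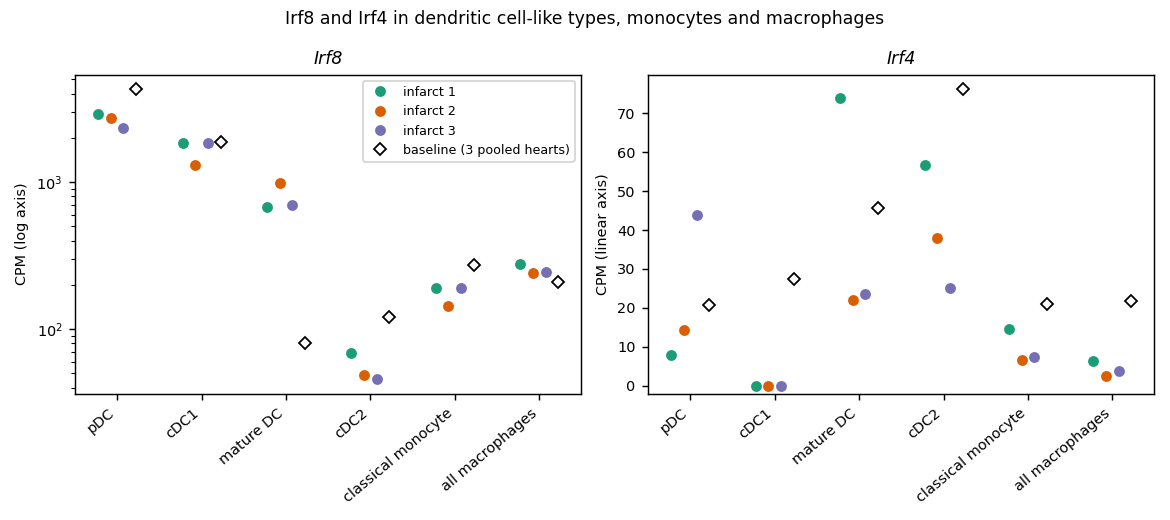
CPM (vertical) of Irf8 on a log axis and Irf4 on a linear axis in 6 populations, with filled points for the 3 infarct libraries and an open diamond for the baseline library. Irf8 ran from 2337 to 2918 CPM in infarct pDC down to 45.7 to 68.9 CPM in infarct cDC2, while Irf4 was 0 in infarct cDC1 and highest in cDC2 and mature DC.

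Irf8, the interferon regulatory factor on which cDC1 and pDC depend (chr8:120736358-120756694, plus strand), and Irf4, its relative used by cDC2 (chr13:30749226-30766976, plus strand), were read together in the dendritic types. In pDC, Irf8 measured 2918, 2749 and 2337 CPM in the infarct libraries and 4294 CPM at baseline. In cDC1 it measured 1842, 1311 and 1831 CPM and 1863 CPM at baseline. These 2 types held 4 to 23 cells in a library, and their levels are a description without a test.

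The mature DC, gated on Ccr7, Fscn1, Ccl22 and Cacnb3, stood far above cDC2 for Irf8. They measured 673, 987.5 and 694 CPM, whereas cDC2 measured 68.9, 48.4 and 45.7 CPM, the lowest of the 12 types. The 3 pairs of values did not approach each other. The difference was 14.9-fold (log2 3.90, SE 0.17, edgeR adjusted p = 3.2e-18), higher in 3 of 3 libraries, and it passed in all 14 alternative settings. At baseline the same gate held 11 cells and 7 Irf8 UMIs, giving 79.96 CPM, so the high level was measured only in the infarct libraries and at baseline it rests on too few cells to be compared. Averaged over cDC2 and mature DC, the dendritic types did not pass the test against macrophages for Irf8 (log2 -0.12, SE 0.09, edgeR adjusted p = 0.30), although the mean CPM was 419.5 ± 85.3 against 245 ± 33.8 (SD, n = 3), because the fit averages log values and the CPM mean is carried by mature DC.

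Irf4 was low everywhere and, among the 12 fitted types, highest in cDC2 and mature DC. It measured 56.7, 37.8 and 25.2 CPM in cDC2 and 73.9, 22.1 and 23.5 CPM in mature DC, and these types overlapped (log2 0.16, SE 0.35, edgeR adjusted p = 0.79). Both lay above the macrophage types together, which measured 6.26, 2.51 and 3.89 CPM. The dendritic types exceeded macrophages by 3.29 on the log2 scale (SE 0.24, edgeR adjusted p = 3e-13), in 3 of 3 libraries. Infarct library 1 had the highest Irf4 level of the 3 in 10 of the 12 types, and the log2 difference of the dendritic types from macrophages was 2.85 to 3.55 over the 14 alternative settings.

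Detection of both factors was also read cell by cell. In infarct cDC1, 24 of 25 cells held Irf8 UMIs and 0 of 25 held Irf4, which allows a share of up to 12% with a UMI and does not limit the share of cells that express the gene. In infarct cDC2, pooled over the libraries, 27.5% of 542 cells held Irf4, 30.4% held Irf8 and 8.49% held both. In mature DC 75.5% of 151 cells held Irf8, 16.6% Irf4 and 11.3% both. In infarct pDC 91.1% of 45 cells held Irf8 and 15.6% Irf4, an Irf4 share close to that of mature DC. The share in B cells of the infarct libraries was 16.2% for Irf4 and 58.1% for Irf8, and B cells make both factors themselves. The endothelial gate had 0 to 7.69% for Irf4 and 30.8 to 50% for Irf8, and cDC2 had 30.0 to 30.9% for Irf8 per library. The few endothelial-gate cells also held the genes placed downstream of PU.1, at a summed 1233 to 2067 CPM beside 2865 to 2966 CPM in macrophages. That gate thus gives no clean background, and the part of background in the cDC2 share of Irf8 was not tested. Thinned to 2000 UMIs, the shares in infarct cDC2 were 7.95% for Irf4 and 8.90% for Irf8. These cells share 3 libraries and are no replicates.

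**Figure D3:**
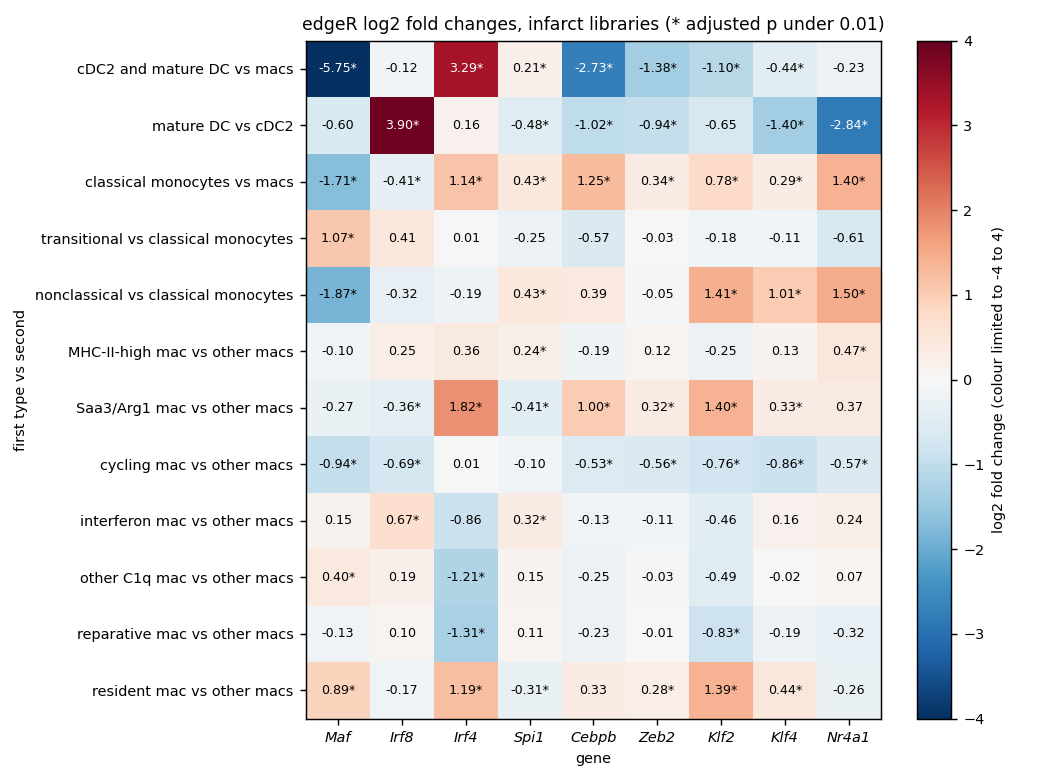
Log2 fold changes of the 9 genes (columns) in 12 contrasts of gated types (rows), from the edgeR fit over the 3 infarct libraries, with an asterisk where the adjusted p was under 0.01. The largest values were -5.75 for Maf and 3.29 for Irf4 in dendritic cells against macrophages, and 3.90 for Irf8 in mature DC against cDC2.

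Counted over the 12 contrasts, 56 of 108 pairs of gene and contrast passed, 30 of them higher and 26 lower. Of all genes, 10.3 to 47.5% passed in a contrast. In dendritic cells against macrophages 7 of 9 passed, 2 higher and 5 lower, where 38.8% of all genes passed. Klf2 was lower there (log2 -1.10, SE 0.19, edgeR adjusted p = 1.1e-05), and so was Klf4 (log2 -0.44, SE 0.09, edgeR adjusted p = 0.00018). Nr4a1 gave -0.23 (SE 0.21, edgeR adjusted p = 0.37). In mature DC against cDC2 6 of 9 passed, 1 higher and 5 lower, beside 22.7% of all genes. The call of Cebpb was lost without infarct library 1 and without library 2, and that of Spi1 without library 1. The median log2 difference of the 9 genes was -0.65 there, beside -0.11 over all genes.

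Mature DC also had the lowest Nr4a1 and Klf4 of the 12 types. Nr4a1 measured 31.4, 14.7 and 62.7 CPM against 187, 321 and 296 CPM in cDC2, with no overlap (log2 -2.84, SE 0.34, edgeR adjusted p = 4.2e-08). Klf4 measured 127.5, 147 and 129 CPM against 387.5, 388 and 324.5 CPM (log2 -1.40, SE 0.17, edgeR adjusted p = 3.9e-08). Immediate-early genes moved with them: 10 of 13 listed genes such as Egr1, Atf3 and Fos were lower and 0 were higher, with a median of -1.57, and their summed level was 4238 to 4827 CPM in mature DC and 10009 to 13389 CPM in cDC2. Nr4a1 is itself an immediate-early gene, and the part of tissue digestion in these levels was not tested. Nr4a3, its relative, went the other way, higher by 3.07 (SE 0.21, edgeR adjusted p = 8.3e-14).

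Nr4a1, the orphan nuclear receptor that nonclassical monocytes require (chr15:101254269-101274795, plus strand), was highest in that type, as were both Krüppel-like factors. Nonclassical monocytes measured 747, 1015 and 1024 CPM of Nr4a1 in the infarct libraries. Classical monocytes measured 227, 337 and 378 CPM, and no other of the 12 types exceeded 378 CPM. The log2 difference between the monocyte types was 1.497 (SE 0.19, edgeR adjusted p = 2.2e-07), in 3 of 3 libraries. Of the immediate-early list 0 of 13 genes were higher and 2 lower in this contrast. Its summed level was 9540 to 12590 CPM beside 9596 to 12504 CPM in classical monocytes. The part of tissue digestion in the nonclassical Nr4a1 level was not tested.

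Klf2, a shear- and quiescence-associated factor (chr8:72319033-72321656, plus strand), measured 1444, 1884 and 1457 CPM in nonclassical and 594, 489 and 618 CPM in classical monocytes (log2 1.41, SE 0.25, edgeR adjusted p = 5.3e-05). Klf4, which supports monocyte development (chr4:55527143-55532466, minus strand), measured 738, 887 and 785.5 CPM against 375, 365.5 and 391 CPM (log2 1.01, SE 0.13, edgeR adjusted p = 2.5e-07). Neither gene overlapped between the 2 monocyte types. In this contrast 5 of 9 genes passed, 4 higher and 1 lower, beside 15.6% of all genes, and the call of Spi1 among them was lost without any 1 library. Endothelial cells are another known source of Klf2 and Klf4, and the endothelial gate measured 1405 to 1514 CPM of Klf2, close to the nonclassical level. Their part in the nonclassical values was not tested. The nonclassical gate took 93, 105 and 125 cells of the infarct libraries at a median of 3984.0 to 4720.0 UMIs.

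Set against the macrophages as a whole, classical monocytes differed for 9 of 9 genes, 7 higher and 2 lower, in a contrast where 47.5% of all genes passed. Nr4a1 was 2.64-fold higher (log2 1.40, SE 0.12, edgeR adjusted p = 2.4e-11) and Cebpb 2.38-fold higher (log2 1.25, SE 0.12, edgeR adjusted p = 3.5e-10). Of 13 immediate-early genes 6 were higher and 3 lower in this contrast, with a median log2 difference of 0.47. Their part in the Nr4a1 value was not tested. Maf was 3.27-fold lower (log2 -1.71, SE 0.11, edgeR adjusted p = 3.1e-14) and Irf8 1.33-fold lower (log2 -0.41, SE 0.10, edgeR adjusted p = 0.0012). Klf4, the smallest of the 9 at 0.29 (SE 0.09), lost the threshold under 9 of 14 alternative settings, Irf8 lost it without infarct library 1, Klf2 without library 3 and Irf4 after thinning to 2000 UMIs.

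Resident macrophages, gated on Lyve1, Cd163, Folr2, Timd4 and Cbr2, differed from the other macrophages for 6 of 9 genes, 5 higher and 1 lower, beside 18.7% of all genes. Klf2 measured 1081, 696 and 760.5 CPM there, above the 342 ± 23.2 CPM of the others (SD, n = 3) in 3 of 3 libraries (log2 1.39, SE 0.17, edgeR adjusted p = 1.3e-07). Maf was higher by 0.89 (SE 0.09, edgeR adjusted p = 6.1e-09), and Klf4 by 0.44 (SE 0.09, edgeR adjusted p = 0.00034), the latter call lost without infarct library 3. Of the immediate-early genes 1 of 13 was higher and 4 were lower, and the part of tissue digestion in these levels was not tested. Zeb2 was higher by 0.28 (SE 0.07, edgeR adjusted p = 0.0016) and Spi1 was lower (log2 -0.31, SE 0.06), calls both lost without infarct library 1 and without library 3. Irf4, at 15.1, 6.56 and 7.78 CPM, was higher by 1.19 (SE 0.28, edgeR adjusted p = 0.0017), but the call was lost without infarct library 1 and after thinning to 2000 UMIs. Its UMIs were in 4.73 to 10.2% of cells, overlapping the 0 to 7.69% of the endothelial gate, whose few cells do not set a background. The part of background in the resident Irf4 level was not tested.

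The Saa3/Arg1 macrophages, which carry acute-phase and arginase transcripts, shared some of that pattern and differed for 7 of 9 genes, 5 higher and 2 lower, beside 32.1% of all genes. Klf2 measured 1052, 718 and 757 CPM (log2 1.40, SE 0.17, edgeR adjusted p = 5.7e-08), overlapping the resident range. Maf measured 506, 391 and 374 CPM and did not pass the test against the other macrophages (log2 -0.27, SE 0.10, edgeR adjusted p = 0.032). Immediate-early genes were lower here, 6 of 13 with 0 higher. Irf4 was higher, at 19.3, 7.98 and 13.3 CPM (log2 1.82, SE 0.25, edgeR adjusted p = 5.7e-07), with UMIs in 8.20 to 11.7% of cells. The endothelial gate, with 35 cells and 4 Irf4 UMIs over the infarct libraries, had 0 to 7.69% and a mean of 13.4 ± 23.2 CPM beside 13.5 ± 5.68 CPM in the Saa3/Arg1 gate (SD, n = 3). Those UMIs are too few to set a background level. Over the other macrophage types of the same libraries the mean ran from 1.93 CPM in reparative to 9.82 CPM in resident cells. The part of background in the Saa3/Arg1 level was not tested. Irf8 was lower (log2 -0.36, SE 0.11, edgeR adjusted p = 0.0079), a call lost without infarct library 2 and without library 3. The call of Klf4 was lost without library 1 and without library 3, and that of Zeb2 without library 1.

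Cycling macrophages were lower for 7 of 9 genes and higher for none, beside 36.6% of all genes. Of these calls, that of Cebpb was lost without infarct library 1 or 3, that of Klf2 without library 1 or 2 and that of Nr4a1 without library 3. Maf measured 275, 269.6 and 308 CPM in them (log2 -0.94, SE 0.11, edgeR adjusted p = 7e-09), Klf4 166, 215 and 231 CPM (log2 -0.86, SE 0.10, edgeR adjusted p = 1.7e-08) and Irf8 193, 145 and 175 CPM (log2 -0.69, SE 0.11, edgeR adjusted p = 3.2e-06). Spi1, at 464, 533 and 435 CPM, did not pass the test (log2 -0.10, SE 0.06, edgeR adjusted p = 0.20). Other lists fell too in these cells, 12 of 24 other myeloid transcription factors with 0 higher and 8 of 13 immediate-early genes with 0 higher. These cells held 13224.5 to 14683.5 UMIs at the median against 6606.5 to 9925.0 in the other macrophage types. With every cell thinned to 2000 UMIs the calls of Cebpb, Klf2 and Nr4a1 were lost, and those of Maf, Klf4, Irf8 and Zeb2 passed.

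Macrophages of the interferon gate were higher for Irf8 and Spi1, 2 of 9 genes, beside 17.5% of all genes. Irf8 measured 391, 280.0 and 325.5 CPM, with the other macrophages at 230.5 ± 30.2 CPM (SD, n = 3), and was higher in 3 of 3 libraries (log2 0.67, SE 0.10, edgeR adjusted p = 1.5e-06). Of 24 other myeloid transcription factors 11 were higher and 0 lower, among them Irf1, an interferon-induced factor, at 1.40 (SE 0.10, edgeR adjusted p = 3.7e-13). Immediate-early genes were also higher in 9 of 13. Spi1 was higher by 0.32 (SE 0.06), a call lost without infarct library 1 and without library 3.

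In the remaining macrophage types the share of the 9 genes that passed was near that of all genes. Reparative macrophages, gated on Gpnmb, Spp1 and Gdf15, were lower for 2 of 9 genes, beside 19.1% of all genes: Klf2 at 179, 250.3 and 166 CPM (log2 -0.83, SE 0.20, edgeR adjusted p = 0.0015) and Irf4 at 2.80, 1.59 and 1.39 CPM (log2 -1.31, SE 0.23, edgeR adjusted p = 6.2e-05). The Klf2 call was lost without infarct library 3. MHC-II-high macrophages were higher for Nr4a1 (log2 0.47, SE 0.13, edgeR adjusted p = 0.0054) and Spi1 (log2 0.24, SE 0.06), 2 of 9 genes beside 23.5% of all, and each call was lost under 6 of 14 alternative settings, that of Nr4a1 without infarct library 1 or 3 and that of Spi1 without any 1 library. Immediate-early genes were higher in 10 of 13 in that type, and their part in the Nr4a1 value was not tested. C1q macrophages positive for no other list had higher Maf (log2 0.40, SE 0.09) and lower Irf4 (log2 -1.21, SE 0.27), 2 of 9 genes beside 21% of all. Both calls were lost without infarct library 3, and that of Maf also without library 2.

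**Figure D4:**
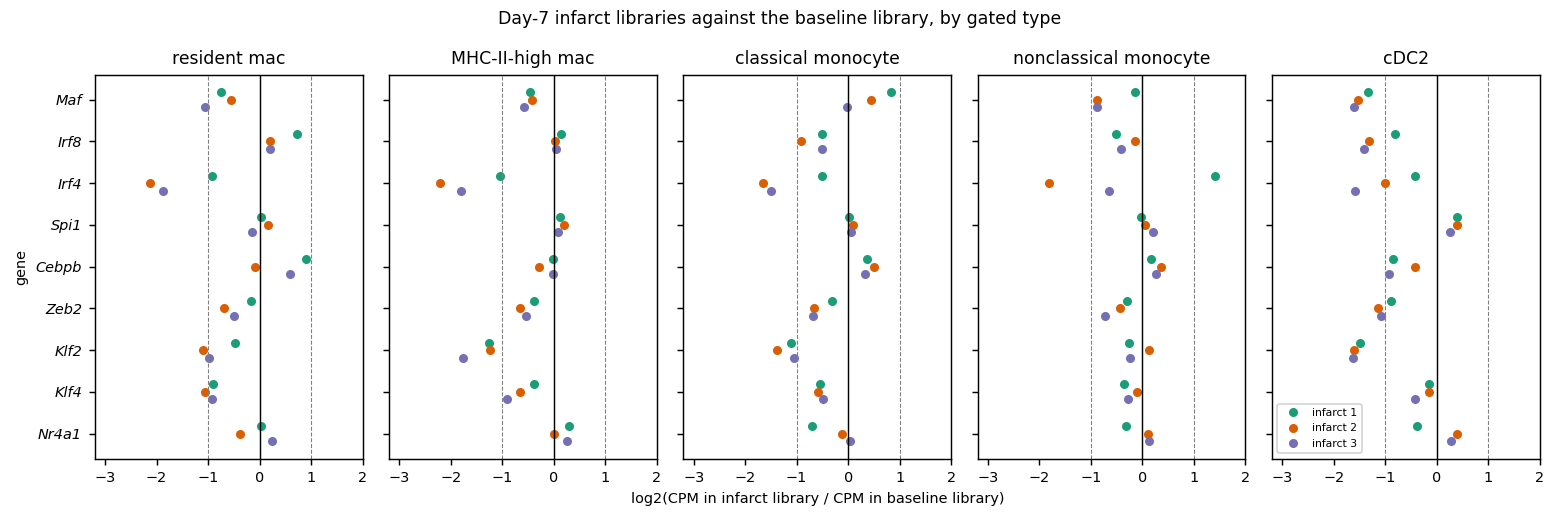
Log2 of the CPM in each infarct library over the CPM in the 1 baseline library (horizontal) for the 9 genes (vertical) in 5 gated types, with dashed lines at a 2-fold difference. Klf2 lay left of the line at -1 in every infarct library in MHC-II-high macrophages, classical monocytes and cDC2, while in nonclassical monocytes every gene except Irf4 stayed within 2-fold of baseline in each library.

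Infarct and baseline libraries were set side by side without a test, because the baseline is 1 library of pooled hearts, and a gene was counted when the infarct mean differed 2-fold and all 3 infarct libraries lay on the same side. Over all cells 3 of 9 genes were counted, all lower in the infarct libraries, beside 9.56% of all genes in either direction. Klf2 measured 1146 CPM at baseline (exact 95% Poisson interval 1138 to 1155, counting error only) and 409.5, 309 and 295 CPM, a 3.39-fold difference. Klf4 was 669 CPM at baseline and 356, 314 and 295 CPM, 2.08-fold lower, and Irf4 was 23.9 CPM and 10.7, 3.67 and 5.02 CPM, 3.70-fold lower. No infarct value reached the baseline value for any of these genes. In the cells as a whole fewer cells of a type and less RNA per cell cannot be told apart.

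Over macrophages together 4 of 9 genes were counted, beside 11.3% of all genes, the same 3 and Maf, which was 1053 CPM (interval 1043 to 1063) at baseline and 462, 486.5 and 425 CPM. The mix of macrophage types differed between the groups: resident macrophages were 3306 cells at baseline and 381, 169 and 365 cells in the infarct libraries, and reparative macrophages 116 and 1879, 2544 and 2030 cells. Within resident macrophages the same genes were lower by less. Maf went from 1476 CPM to 874.5, 1002 and 712 CPM (log2 -0.77), Klf2 from 1494 to 1081, 696 and 760.5 CPM (log2 -0.82) and Klf4 from 870.1 to 466, 418 and 461 CPM (log2 -0.96). All 3 infarct libraries lay below baseline for each. Only Irf4 was counted there, 1 of 9 genes beside 11.5% of all genes, at 28.7 CPM against 15.1, 6.56 and 7.78 CPM. Its UMIs were in 15.9% of resident macrophages at baseline, where the endothelial gate, at a median of 2199.0 UMIs, had 5.19%. Thinned to 2000 UMIs the shares were 5.36% and 3.80%, and the levels were 28.7 and 28.6 CPM, so the resident level is not separated from that of the endothelial gate. Baseline nonclassical monocytes measured 7.81 CPM of Irf4 (interval 5.60 to 10.6). The part of background in the resident level was not tested.

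Klf2 was counted in 3 of the 5 single types. In MHC-II-high macrophages it measured 746 CPM at baseline and 309.9, 315 and 219 CPM in the infarct libraries, where 2 of 9 genes were counted beside 8.67% of all. In classical monocytes it measured 1277 CPM and 594, 489 and 618 CPM, again with 2 of 9 counted, beside 8.73%. In cDC2 it measured 571 CPM and 204, 187 and 185 CPM, where 4 of 9 were counted beside 11.9%. Of these 4, Irf8 and Zeb2 were no longer counted under TMM scaling. The direction of Irf8 turned from -1.16 to 0.055 in cells positive for 1 list. Its infarct share was no higher than in the endothelial gate, which gives no clean background. In nonclassical monocytes Klf2 measured 1734 CPM at baseline and 1444, 1884 and 1457 CPM, values on both sides of baseline, and 0 of 8 genes with enough counts were counted there, beside 4.27% of all genes.

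Immediate-early genes, which rise during tissue digestion, moved with some of these values. Their summed level in resident macrophages was 14680 CPM at baseline and 7048 to 8413 CPM in the infarct libraries, and in MHC-II-high macrophages 16232 CPM and 10680 to 12166 CPM. In classical monocytes it was 11689 CPM against 9596 to 12504 CPM and in cDC2 11780 CPM against 10009 to 13389 CPM, ranges that include the baseline value. Nr4a1, an immediate-early gene too, lay on both sides of baseline in resident macrophages, at 113 CPM and 115, 86.7 and 132 CPM. The part of digestion in the difference was not tested.

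Among the other genes the direction depended on the gene and the type. Spi1 measured 488 CPM over all baseline cells and 502.5, 538 and 488.5 CPM in the infarct libraries. Irf8 in resident macrophages was 178 CPM at baseline and 294, 205.5 and 205.5 CPM after infarction, above it in 3 of 3 libraries. In classical monocytes Irf8 went the other way, from 273 CPM to 191, 144 and 192 CPM. Cebpb in classical monocytes was 1386 CPM and was above that in each infarct library, at 1784, 1971 and 1748 CPM, a log2 difference of 0.40. In cDC2, Zeb2 was 699.7 CPM at baseline and 378, 316 and 332 CPM in the infarct libraries.

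The scale matters for small differences in this comparison. The median log2 ratio of all tested genes was -0.21 over all cells on the CPM scale and 0.08 after TMM scaling. Under TMM the number of counted pairs of gene and population fell from 16 to 11, and the 5 that left were Klf4 over all cells (-0.76), Maf and Klf4 over macrophages (-0.89 and -0.83) and Irf8 and Zeb2 in cDC2 (-0.99 and -0.87). Klf2 kept a log2 ratio of -1.47 over all cells, and the direction of Cebpb over all cells turned from -0.15 to 0.14.

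Other myeloid transcription factors were read from a list of 24 genes. In dendritic cells against macrophages 9 were higher and 7 lower, beside 38.8% of all genes in either direction. Zbtb46, the factor of conventional dendritic cells, was higher by 6.41 (SE 0.29, edgeR adjusted p = 1.2e-18). In classical monocytes against macrophages 11 of the 24 were higher and 6 lower, beside 47.5% of all genes, and the Nr4a1 relative Nr4a2 was higher by 1.94 (SE 0.10, edgeR adjusted p = 2e-16). In resident macrophages 3 were higher and 4 lower, beside 18.7% of all genes, with Nr1h3, the liver X receptor alpha, higher by 0.99 (SE 0.23, edgeR adjusted p = 0.0013).

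The genes most like each of the 9 in level over the 12 types were sought among 4683 genes. For Maf they were P2rx7, Slc7a8 and Aoah (Pearson r 0.99, 0.98 and 0.98). For Spi1 they were Ptprc, which encodes CD45 and gave 0.98, Gm26532 and Sorl1. Klf2 was most like Grk5, Rasgrp2 and Mapkapk2 (0.97 each), Klf4 most like BC017643, Il6ra and Ep300, and Nr4a1 most like Bin2, Plcg2 and Zbtb7b. Cebpb and Zeb2 shared Sqor among their 3 (0.97 in both), beside Cap1 and Tbc1d2b for Cebpb and Faim and Snx18 for Zeb2. Irf8 was nearest to Chpt1, Klf6 and Marcks, at 0.95, 0.94 and 0.91, and Irf4 to Avpi1, Nop16 and Pmvk. The 12 points of each correlation share the same 3 libraries, and the values are a description.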

How the data were processed

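The sorted cells were sequenced as droplet libraries with a 3′ kit. The deposited tables hold unnormalised UMI counts. Per the file headers and the methods, the authors ran Cell Ranger 3.1.0 on the mm10 reference. The submitters' processing notes name version 3.0.1. Everything after these counts was computed here (Python 3.11.15, scanpy 1.11.5, scipy 1.17.1, matplotlib 3.10.9).

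Cells with 500 to 40000 UMIs and over 200 genes and genes found in at least 3 cells were kept, as in the study. A cell was positive for a marker list with at least 2 of its UMIs and a cut per 10000 UMIs, and lists were read in a fixed order, non-myeloid ones first. Counts were summed by type and library and compared by the quasi-likelihood test of edgeR 4.0.16 (R 4.3.3) with TMM scaling, its default filter, and the library as a block. A block pairs the sums of 1 heart. Each type needed 10 cells in every infarct library to be fitted, which left out cDC1, and 12 contrasts were tested. The 7 macrophage types and both dendritic types were weighted equally. On simulated counts for resident macrophages against the others, over 11362 genes, the fit recovered 70% of 100 genes changed 2-fold and 92% of 100 changed 4-fold, and called 2 unchanged genes. The simulation changed genes in resident macrophages only. All other genes had the same expected share in every type and library, with no effect of the heart. Its rates need not hold in the real data, where types differ for many genes.

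Infarct and baseline were compared as CPM with no test. Intervals are exact Poisson at 95% and cover counting error only. Doublets were scored with Scrublet, whose automatic threshold marked at most 1.93% of a library and under 0.01% of each infarct library and so did not work there, and 8.10 to 8.63% of cells per library, those with the highest scores, were removed in an alternative. Other alternatives were DESeq2 1.42.0 and its size factors, no filter, no block, each infarct library left out, marker cuts halved or doubled, cells positive for 1 list, at most 10% mitochondrial UMIs, thinning to 2000 UMIs and at least 20 cells.

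All 9 genes are named. Likeness is the Pearson r of log2(CPM + 10) over 12 types, among genes with at least 50 CPM in a type. Up to 4 genes of a list that passed in a contrast could be named, the largest changes first. The genes, marker lists, other lists and tests were chosen with earlier results of these data known, and the promoter motifs and windows after the values were seen. Single values of some genes of the lists are not reported here.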

Additional observations from a re-analysis of the deposited data

Results flagged for a closer look

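Cebpb and Irf8 differed from baseline in opposite directions in different types, with all 3 infarct libraries outside the counting interval of the baseline library on each side. Cebpb was above baseline in classical monocytes (log2 0.40) and nonclassical monocytes (log2 0.27) and below it in cDC2 (log2 -0.72), so that the differences between types were 1.12 and 0.99 on the log2 scale. Irf8 was above baseline in resident macrophages (log2 0.40) and below it in classical monocytes (log2 -0.64), nonclassical monocytes (log2 -0.35) and cDC2 (log2 -1.16), giving differences of 1.04, 0.75 and 1.56. These differences were not tested, since each rests on the same 1 baseline library. The Irf8 ratio in cDC2 was 0.055 when cells positive for more than 1 marker list were left out, and Cebpb in nonclassical monocytes gave a lowest value of -0.15 over its alternatives.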

How the results depend on the processing

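Between types, 56 of 108 pairs of gene and contrast passed, beside 10.3 to 47.5% of all genes in a contrast. Over 14 alternatives 40 to 64 pairs passed: 40 to 52 with 1 infarct library left out, 53 with DESeq2 size factors, 56 with the DESeq2 Wald test, 64 with no filter, 51 to 55 with other marker gates, 54 with doublets removed and 44 after thinning. Of the 56 pairs 30 passed under every alternative, 26 lost the threshold under at least 1 and 0 changed sign. Without the replicate block 47 passed. Of the 52 pairs that did not pass, 17 changed sign and 15 passed under some alternative. Among those named, Irf4 in mature DC against cDC2 turned to -0.47 without infarct library 1 (up to 0.42 without another) and to -0.066 with the marker cuts doubled, Irf8 in dendritic cells against macrophages to 0.049 with the cuts doubled, and Nr4a1 in that contrast to 0.056 with the cuts halved. Against baseline, 16 pairs of gene and population were counted, beside 4.27 to 11.9% of all genes in a population. The number was 11 under TMM, 14 to 18 with 1 infarct library left out and 14 to 18 under the others, and Irf8 in cDC2 turned to 0.055 in cells positive for 1 marker list. The causes were not tested. No paired analysis of infarct and baseline was possible because the baseline library was pooled from other hearts, without surgery. Few cells limited cDC1, pDC and baseline mature DC, and the planned contrast of cDC1 with cDC2 was not run.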
